A study of Mus musculus with 21 samples.

Results

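The 10 genes described here encode parts of 2 lytic forms of cell death. Nlrp3, Pycard, Casp1, Casp4, Gsdmd, Il1b, Il1rn and Il18 belong to the inflammasome, pyroptosis and the interleukin-1 output, and Ripk3 and Mlkl belong to necroptosis. They were chosen by gene symbol, and all 10 had a row among the 20634 genes held by both count tables. Female apoE KO mice (apoE knockout on a C57BL/6J background, a genotype that the controls carried too) started their diets at 4 weeks of age and were 18 weeks old after 14 weeks of feeding. The Con group (5 mice) received control chow, the Ade group (6 mice) a diet with adenine, which injures the kidney tubules, and the Ade + IMC group (6 mice) adenine with iodomethylcholine (IMC), an inhibitor of the bacterial enzyme that makes trimethylamine in the gut. The 4 Con + IMC mice were not analysed here, so IMC was read only together with adenine. Each library was made from the kidney tissue of 1 mouse, and only females of this one hyperlipidemic genotype were used. The study asked whether IMC prevents the chronic kidney disease that adenine feeding causes.

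Inflammasomes are protein platforms that form in the cytosol when a sensor detects infection or damage. In the canonical form NLRP3 recruits the adaptor ASC (gene Pycard), which activates caspase-1 (Casp1). Caspase-1 matures IL-1β (Il1b) and IL-18 (Il18) and cleaves gasdermin D (Gsdmd), whose released part opens pores in the plasma membrane. In the non-canonical form the mouse caspase encoded by Casp4 senses lipopolysaccharide in the cytosol and cleaves the same gasdermin. The IL-1 receptor antagonist (Il1rn) occupies the IL-1 receptor without signalling. Necroptosis runs apart from caspases: RIPK3 phosphorylates MLKL, which then breaches the membrane. In the kidney, myeloid cells are known carriers of the inflammasome, and tubular cells can use the RIPK3 and MLKL route.

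Total counts were 7716126 to 11680809 (Con), 5444833 to 7673215 (Ade) and 5728589 to 8305968 (Ade + IMC) per library. Levels are given as CPM (the count over the library total, scaled to a common size and adjusted by the trimmed mean of M values, TMM, over all 17 mice). The defining markers of kidney tissue were present, with proximal tubule markers summing to 15742 to 21342 CPM per Con mouse. Mouse 311 of the Ade + IMC group stood apart from its group, with a chi-square per degree of freedom of 44.3 to 75.4 against the other 5 mice. Its summed B and plasma cell markers reached 30395 CPM, and values without it are given beside some, not all, of the results that it moved. The labels do not say that any mice shared a litter or cage, and the first digit of the mouse numbers (2, 3 or 4) has no stated meaning.

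Sequences upstream of the members are shown first, and 1 window is printed for each gene that held 1 of 5 searched motifs. RefSeq (GRCm38.p6) gave 13 start sites for 9 of the 10 members, and the 250 bases before each start were searched on both strands for NF-kB, AP-1 (TGANTCA), PU.1 (GAGGAAGT), ISRE (GAAA, any 2 bases, GAAA) and GAS (TTCNNNGAA). NF-kB matches stood before both Casp4 starts, which share most of their bases, and before 1 of the 2 Nlrp3 starts, against 7.25% of all 32851 promoters. An AP-1 match stood before 1 of the 3 Il1rn starts (6.75% of all promoters), and a PU.1 match before the Pycard start (2.44%). ISRE (2.98% of all) and GAS (7.02%) had 0 matches in the members' windows. Capitals mark the matches in the lines that follow, each 5′ to 3′ on the gene's strand, and a match is no evidence of binding. The Casp4 window, chr9:5308599-5308848 (plus strand), has overlapping matches that begin 93 and 92 bases before the start and another at 39 bases. The Nlrp3 window is chr11:59541319-59541568 (plus strand, match 186 bases before the start), the Il1rn window is chr2:24336610-24336859 (plus strand, 141 bases), and the Pycard window is chr7:127993868-127994117 (minus strand, 44 bases, where the motif lies on the other strand).
Casp4: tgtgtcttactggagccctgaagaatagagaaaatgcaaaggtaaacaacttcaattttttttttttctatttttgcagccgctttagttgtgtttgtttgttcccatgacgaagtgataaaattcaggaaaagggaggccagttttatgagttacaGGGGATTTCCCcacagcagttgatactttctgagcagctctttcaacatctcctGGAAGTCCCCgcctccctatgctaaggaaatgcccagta
Nlrp3: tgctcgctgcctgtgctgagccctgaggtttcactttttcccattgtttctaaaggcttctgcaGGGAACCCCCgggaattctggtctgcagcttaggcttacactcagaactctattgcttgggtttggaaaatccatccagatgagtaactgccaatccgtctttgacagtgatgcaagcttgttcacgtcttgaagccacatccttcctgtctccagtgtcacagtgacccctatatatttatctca
Il1rn: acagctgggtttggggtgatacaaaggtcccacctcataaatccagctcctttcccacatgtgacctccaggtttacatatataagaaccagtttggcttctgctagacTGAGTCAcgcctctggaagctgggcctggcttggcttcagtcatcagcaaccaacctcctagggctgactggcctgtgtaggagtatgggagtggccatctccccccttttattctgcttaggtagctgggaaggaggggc
Pycard: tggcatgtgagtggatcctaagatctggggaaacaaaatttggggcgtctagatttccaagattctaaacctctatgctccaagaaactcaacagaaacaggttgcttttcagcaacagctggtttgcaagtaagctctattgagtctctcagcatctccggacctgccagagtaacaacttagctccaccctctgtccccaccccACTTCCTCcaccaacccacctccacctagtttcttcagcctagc

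All 10 genes were higher in the kidneys of adenine-fed mice. Every Ade mouse was above every Con mouse for each of the 10, from which the same order within each first digit of the mouse number follows. The median of the 10 log2 fold changes was 2.52 (range 1.45 to 5.70), against 0.02 over all 14612 genes tested, and differences in fold change between members were not tested. Adenine changed the kidney transcriptome widely, so these counts have to be read against the background. Of all genes tested, 67.3% were called (adjusted p below 0.1, edgeR's quasi-likelihood test with Benjamini-Hochberg adjustment), 35.1% as higher and 32.2% as lower, and 22.4% had every Ade mouse above every Con mouse. In bulk tissue, a change in the number of cells of a type and a change in RNA per cell cannot be told apart.

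Nlrp3, the sensor, and Pycard, the adaptor, were both higher with adenine. Nlrp3 measured 0.908, 0.578, 1.49, 1.43 and 1.44 CPM in the 5 Con mice, from only 4 to 11 reads each. Ade mice spanned 4.96 to 9.32 CPM (median 7.36), and those given IMC as well spanned 5.13 to 10.4 (median 8.37). The lowest Ade mouse thus stood well above the highest Con mouse, and the ranges of the 2 adenine groups covered each other almost entirely. The log2 fold change of Nlrp3 between the Ade and Con groups was 2.60 (SE 0.26, adjusted p = 2.63e-06 by edgeR).

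Pycard was already present in the Con kidneys, at 7.87, 5.49, 9.21, 8.44 and 10.2 CPM. Values in Ade mice lay between 15.7 and 33.9 CPM (median 25.2), and with IMC between 17 and 28.1 (median 21.3). Its log2 fold change was 1.65 (SE 0.21, adjusted p = 1.72e-05 by edgeR), and its 95% interval of 1.20 to 2.09 overlapped that of Nlrp3 (2.03 to 3.17). Ade mouse 407 was the lowest of its group, and mouse 311 was the highest of the Ade + IMC group. In GENCODE M21, 485 exonic bases of Pycard overlap a gene on the other strand, and whether the counting used strand is not given in the sources used here, so its reads are uncertain to that extent.

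The 2 inflammatory caspases lie next to each other on chromosome 9 (GRCm38: Casp1 at chr9:5298517-5307265 and Casp4 at chr9:5308828-5336783, both on the plus strand). Casp1 measured 1.72, 2.45, 2.98, 2.08 and 1.57 CPM in the Con mice. The Ade group spanned 7.75 to 20.7 CPM (median 10.4), and the Ade + IMC group 7.05 to 26 (median 8.71). Mice 308 and 311 set the upper ends of these ranges, apart from the next highest values of 12.3 and 13 CPM, yet no adenine-fed mouse was below 7.05 CPM.

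Casp4, the non-canonical caspase, had the second largest estimate of the 10. It measured 2.52, 3.03, 5.15, 2.08 and 4.05 CPM in the Con mice. Values of 22.3 to 40.3 CPM (median 33.7) were found with adenine, and of 17.4 to 32.3 (median 25.7) with adenine and IMC. No adenine-fed mouse of either group came near the Con range. Its log2 fold change between the Ade and Con groups was 3.30 (SE 0.23, adjusted p = 1.03e-07 by edgeR), against 2.47 (SE 0.28, adjusted p = 6.67e-06) for Casp1.

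Gsdmd, the pore-forming substrate of both caspases (chr15:75862327-75867408, plus strand), measured 7.87, 5.05, 7.99, 4.16 and 6.53 CPM in the Con mice. The Ade mice ran from 23.7 to 42.6 CPM (median 31.6) and the Ade + IMC mice from 23.6 to 52.6 (median 27.5), where mouse 311 again gave the top value. The rise had a log2 fold change of 2.37 (SE 0.19, adjusted p = 3.02e-07 by edgeR).

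**Figure D1:**
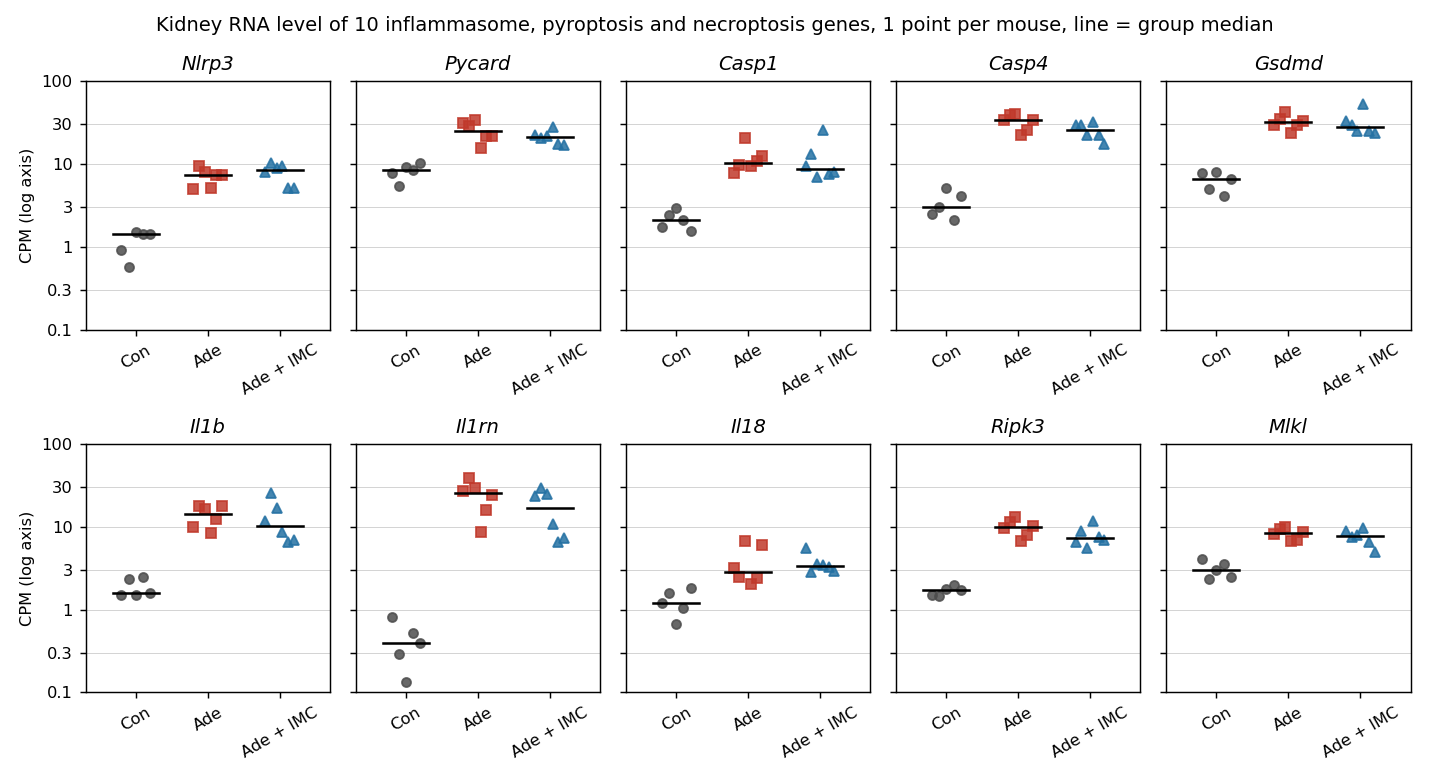
CPM of each of the 10 genes (log axis) in each mouse of the Con (circles), Ade (squares) and Ade + IMC (triangles) groups, with the group median as a line. In every panel the adenine-fed mice of both groups sit above all 5 Con mice, while the 2 adenine groups overlap.

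Among the cytokine genes, Il1rn had the largest estimate. Il1b, encoding IL-1β, measured 1.51, 2.31, 1.49, 2.47 and 1.57 CPM in the Con mice. The Ade range was 8.39 to 17.8 CPM (median 14.3), and the Ade + IMC range was wider at both ends, 6.44 to 25.7 (median 10.1). No adenine-fed mouse came down to the Con range of Il1b. Il1rn, encoding the receptor antagonist, measured 0.807, 0.289, 0.135, 0.52 and 0.392 CPM in the Con mice, which is 1 to 8 reads per library. The Ade range was 8.66 to 38.2 CPM (median 25.5), and the Ade + IMC range 6.44 to 29.4 (median 17). Antagonist RNA thus went from a few reads in a Con library to at least 45 in every adenine-fed mouse.

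The log2 fold change between the Ade and Con groups was 5.70 for Il1rn (SE 0.47, adjusted p = 3.98e-07 by edgeR), or 52-fold with a 95% interval of 25.8 to 105. For Il1b it was 2.90 (SE 0.26, adjusted p = 8.61e-07 by edgeR), or 7.44-fold with a 95% interval of 5.05 to 11. Of the exonic bases of Il1b, 25 overlap the antisense gene Il1bos.

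The balance of antagonist to cytokine was read within each mouse as the log2 ratio of Il1rn to Il1b reads. The same fraction of a read was added to both counts first. The ratio compares mice and not the 2 genes' molar amounts. It was -0.87, -2.72, -2.94, -2.12 and -1.84 in the Con mice, which have few Il1rn reads, so the addition moved their ratios toward 0. Ratios of the Ade mice spanned 0.05 to 1.44 (median 0.64), and those of the Ade + IMC mice 0.00 to 1.0 (median 0.26). All 12 adenine-fed mice were therefore above all 5 Con mice. The mean ± SD was -2.10 ± 0.82 (n = 5) in the Con group, 0.71 ± 0.52 (n = 6) in the Ade group and 0.35 ± 0.36 (n = 6) in the Ade + IMC group, and no test was made of this ratio.

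**Figure D2:**
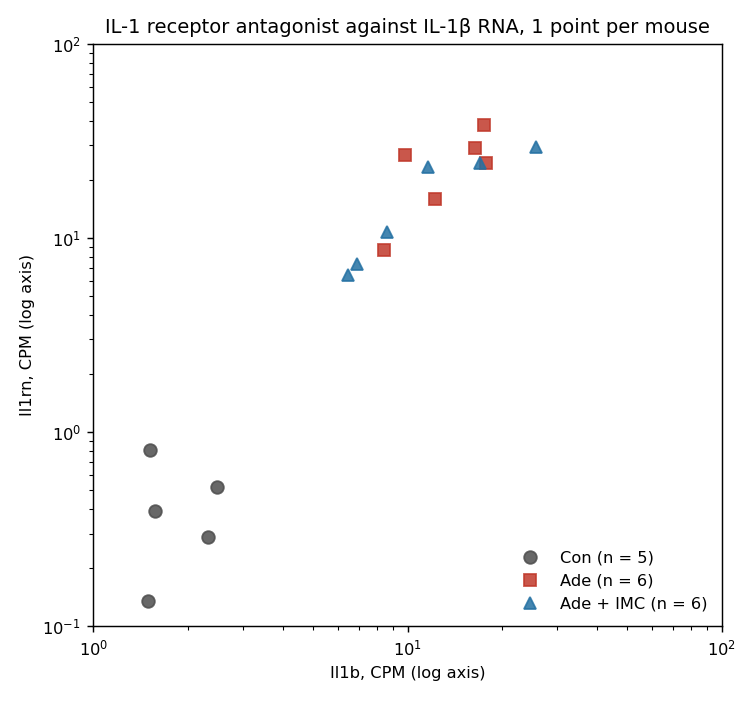
Il1rn against Il1b in CPM (both axes log), 1 point per mouse of the Con (n = 5), Ade (n = 6) and Ade + IMC (n = 6) groups. The Con mice lie at the lower left, below 1 CPM of Il1rn, and the adenine-fed mice of both groups form 1 band in which the genes rise together from mouse to mouse.

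Il18, the other cytokine that caspase-1 matures, had the least certain rise. It measured 1.21, 1.59, 0.677, 1.04 and 1.83 CPM in the Con mice, from 5 to 14 reads. The Ade mice ran from 2.03 to 6.68 CPM (median 2.84) and the Ade + IMC mice from 2.87 to 5.48 (median 3.35). The lowest Ade mouse, 407, was only just above the highest Con mouse, 403. The log2 fold change between the Ade and Con groups was 1.58 with the largest relative error of the 10 genes (SE 0.38, adjusted p = 0.00282 by edgeR).

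The 2 necroptosis genes both rose. Ripk3, the kinase, measured 1.51, 1.44, 1.76, 1.95 and 1.7 CPM in the Con mice. Its Ade range was 6.76 to 12.9 CPM (median 9.99), and its Ade + IMC range 5.53 to 11.7 (median 7.24). Mlkl, its substrate, measured 4.04, 2.31, 2.98, 3.51 and 2.48 CPM in the Con mice, and its later ranges were 6.76 to 10 CPM (Ade, median 8.39) and 4.98 to 9.52 CPM (Ade + IMC, median 7.78). Ripk3 had the lowest coefficient of variation of the members in the Con group, 12%, and Mlkl the lowest in the Ade group, 16%. The Ripk3 value rests on only 10 to 15 reads per library, where sampling noise is large, so it was not read as steadiness. The log2 fold change between the Ade and Con groups was 2.56 for Ripk3 (SE 0.21, adjusted p = 3.19e-07 by edgeR) and 1.45 for Mlkl (SE 0.19, adjusted p = 1.99e-05 by edgeR).

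Levels of different genes were compared per length, as CPM per kilobase of the principal GENCODE M21 transcript. In the Con group the order of the medians was Gsdmd (3.65), Pycard (2.22), Casp4 (2.11), Mlkl (1.51), Il18 (1.41), Casp1 (1.39), Il1b (1.16), Ripk3 (0.898), Nlrp3 (0.355) and Il1rn (0.158). Each gene's range over the Con mice overlapped that of the next in order, except Il1b with Ripk3 and Ripk3 with Nlrp3. In the Ade group Casp4 (23.5) and Gsdmd (17.7) led with overlapping ranges, followed by Il1b (10.5), Il1rn (10.3), Casp1 (6.93), Pycard (6.62), Ripk3 (5.28), Mlkl (4.25), Il18 (3.30) and Nlrp3 (1.83). There, neighbouring ranges failed to overlap only between Gsdmd and Il1b and between Il18 and Nlrp3. Il1rn thus moved from the last place to the fourth, and Nlrp3 took the last. In the Ade + IMC group the first 6 places were the same, from Casp4 (17.9) and Gsdmd (15.4) through Il1b (7.46), Il1rn (6.87) and Casp1 (5.82) to Pycard (5.61), and Nlrp3 (2.08) was again last. The principal transcript of Pycard has 3800 bases, so its level per length would be higher if a shorter transcript was the one made.

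By limma, none of the 10 genes had a called difference when IMC was given with adenine, whereas a DESeq2 fit blocked on that first digit of the mice's numbers called Casp4, Il1rn and Pycard lower. With limma on log2(normalized count + 1), 0 of the 10 members and 0 of all 14696 genes (0%) passed the adjusted p of 0.1. Without a block, DESeq2 on recovered reads called 0.253% of genes, none of them a member, and edgeR on recovered reads 0%. Of all genes, 988 (6.72%) had an unadjusted p below 0.05, and 0 of the 10 members did. The estimates of 8 members were below 0 and those of 2 above, with a median log2 difference of -0.20 against 0.01 over all genes. For no member did the 2 groups separate in CPM. Over all genes, only 19 (0.129%) had every Ade + IMC mouse above every Ade mouse and 14 had every one below, so nothing was read from this overlap.

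Casp4 came closest to the threshold. Its deposited normalized count spanned 166 to 303 (median 251) with adenine alone and 128 to 243 (median 190) with IMC. The log2 difference was -0.36 (SE 0.18, 95% interval -0.75 to 0.03, adjusted p = 0.746 by limma). Leaving out 1 mouse at a time gave values from -0.46 (without Ade mouse 407, adjusted p = 0.294) to -0.25 (without Ade + IMC mouse 412, adjusted p = 0.916), and -0.44 without mouse 311 (adjusted p = 0.448).

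Il1rn had the largest estimate and the widest interval. Its normalized count spanned 64.4 to 287 (median 190) with adenine alone and 47.1 to 218 (median 127) with IMC. The log2 difference was -0.60 (SE 0.43, 95% interval -1.53 to 0.34, adjusted p = 0.808 by limma). Leaving out 1 mouse at a time gave values from -0.86 (without Ade mouse 407, adjusted p = 0.394) to -0.37 (without Ade + IMC mouse 410, adjusted p = 0.976). A fall to 0.346 of the Ade level and a rise of 1.26-fold both lay within the interval.

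For the other members, Ripk3 had a log2 difference of -0.34 (95% interval -0.77 to 0.09), Pycard of -0.25 (-0.65 to 0.15), Il1b of -0.24 (-0.94 to 0.46) and Mlkl of -0.16 (-0.53 to 0.21). The estimates of Casp1 (-0.10, interval -0.78 to 0.57), Gsdmd (-0.09, interval -0.51 to 0.33), Il18 (0.03, interval -0.62 to 0.67) and Nlrp3 (0.12, interval -0.35 to 0.60) were close to 0. Adjusted p-values of the 10 by limma ran from 0.746 to 0.993. Leaving out 1 mouse at a time moved these estimates. Il1b ran from -0.48 (without Ade + IMC mouse 212) to -0.08 (without Ade + IMC mouse 410), and Casp1 from -0.36 (without mouse 311, SE 0.24, adjusted p = 0.557) to 0.08 (without mouse 308, adjusted p = 0.989). Gsdmd ran from -0.25 (without mouse 311, SE 0.14, adjusted p = 0.516) to -0.00 (without mouse 308), and Il18 from -0.12 (without mouse 407) to 0.22 (without mouse 308). The ranges were -0.46 to -0.25 for Ripk3, -0.38 to -0.15 for Pycard, -0.24 to -0.05 for Mlkl and 0.03 to 0.24 for Nlrp3.

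The estimates of this comparison differed between first digits of the mouse number, and these differences were not tested. Within digit 2 (2 mice against 2), 6 of the 10 members had a lower mean in the Ade + IMC group. Within digit 3 (1 Ade mouse against 2) 9 did, and within digit 4 (3 against 2) all 10 did. The Ade mouse of digit 3, mouse 308, was the highest of its group for 7 members. These counts are descriptions with no share over all genes beside them. Il1b had log2 differences of 0.39, -0.45 and -0.89 within digits 2, 3 and 4, and Il18 of 0.47, -0.92 and -0.02. Il1rn was lower within each digit, by log2 differences of -0.30, -0.86 and -1.13. When the digit was a term in the fit, limma called 0 of the 10 members (0.905% of all genes) and edgeR 0 (0.71%). DESeq2 with this block called 3 members, all lower, Casp4 (-0.44, adjusted p = 0.0735), Il1rn (-0.79, adjusted p = 0.0971) and Pycard (-0.37, adjusted p = 0.0978), where 4.09% of all genes were called and 1.77% were called lower.

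**Figure D3:**
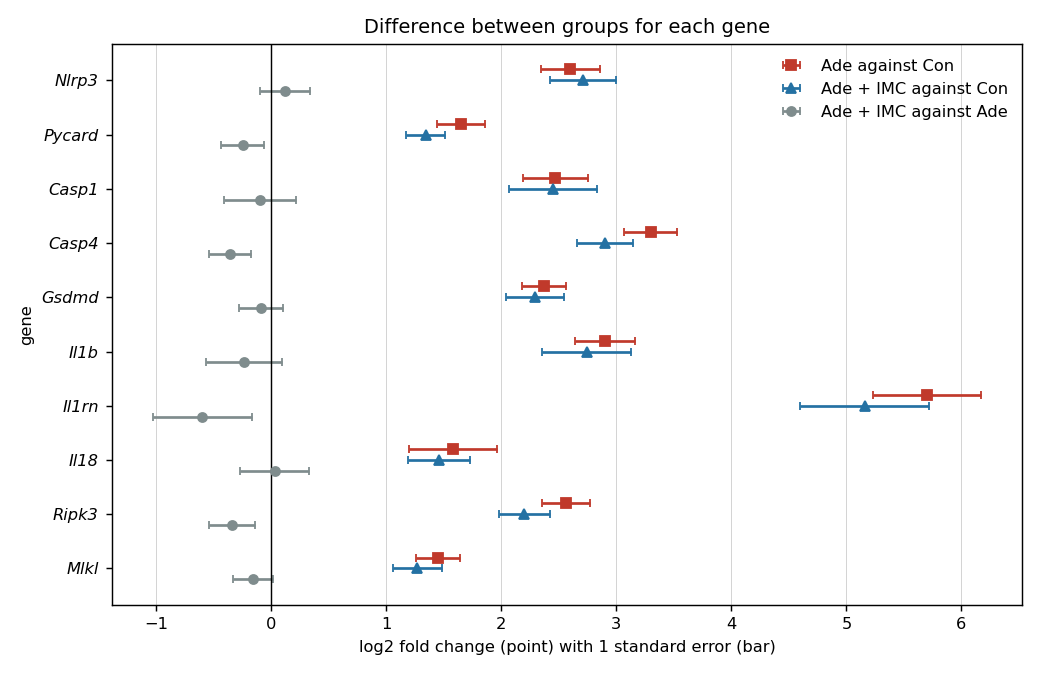
Log2 fold change of each of the 10 genes (points) with 1 standard error (bars) in the Ade against Con, Ade + IMC against Con, and Ade + IMC against Ade comparisons. Both comparisons with the Con group lie between 1.27 and 5.70 for every gene, and the comparison of the adenine groups lies between -0.60 and 0.12.

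Against the Con group, the Ade + IMC mice were higher for all 10 genes too, with every Ade + IMC mouse above every Con mouse for each. Of 14578 genes, edgeR called 63.2%, of which 30.9% of all genes were higher and 32.3% lower, and 20.5% had no overlap in the upward direction. The balance depended on tool and scaling. It was 4504 genes higher and 4715 lower here, 5173 and 3873 with upper-quartile normalization, and 5289 and 4607 with DESeq2. The log2 fold changes were 5.16 for Il1rn (SE 0.56), 2.90 for Casp4 (SE 0.24), 2.74 for Il1b (SE 0.39), 2.71 for Nlrp3 (SE 0.29) and 2.45 for Casp1 (SE 0.38, and 2.05 without mouse 311). Those of Gsdmd (2.29, and 2.07 without mouse 311), Ripk3 (2.20), Il18 (1.46), Pycard (1.34) and Mlkl (1.27) were smaller, and the median of the 10 was 2.37 against -0.02 over all genes. Adjusted p-values of the 10 by edgeR ran from 1.06e-06 for Casp4 to 0.000494 for Il18. Both comparisons use the same 5 Con mice, so they are not independent of each other.

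Within the groups, the members did not vary as 1 block. After each group's mean was taken from the log2 CPM, the 17 mice gave a Pearson r of 0.74 for Il1b with Il1rn and of 0.74 for Casp4 with Gsdmd, and of -0.04 for Casp1 with Il1rn. Nlrp3 had an r of 0.66 with Pycard and 0.53 with Il1b, which were 0.50 and 0.67 without mice 412 and 202. Casp1 and Ripk3 had an r of 0.70, which was 0.37 without mice 308 and 311. These values are descriptions over mice that share library and scaling. Mouse 311 was the highest Ade + IMC mouse for Pycard, Casp1, Casp4, Gsdmd, Ripk3 and Mlkl, while mouse 212 was the highest for Nlrp3, Il1b and Il1rn. In the Ade group mouse 308 was the highest for 7 members and mouse 407 the lowest for 8.

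Markers of several cell types moved with these genes. All 14 macrophage markers were higher in the Ade group by edgeR, and their summed level spanned 290 to 334 CPM (Con), 1915 to 3130 CPM (Ade) and 1701 to 2913 CPM (Ade + IMC). Of 10 neutrophil markers listed, Ly6g, Camp, Ngp and Mpo were not among the genes held by both count tables. The other 6 (S100a8, S100a9, Csf3r, Retnlg, Mmp8 and Cxcr2) summed to 1.44 to 3.64, 21.6 to 42.3 and 13.2 to 50.2 CPM in the same order. Only 3 of them were tested in the Ade group, and 3 were higher. The 10 T and NK cell markers summed to 9.48 to 18.3, 70.9 to 241 and 71.1 to 347 CPM, and the 7 B and plasma cell markers to 18.6 to 32.1, 160 to 9001 and 399 to 30395 CPM. Mouse 311 alone set the upper ends of 347 and 30395 CPM, and the next highest Ade + IMC mouse, 212, had 141 and 3183 CPM. Fibroblast and myofibroblast markers were also higher, 7 of 7 in the Ade group, with sums of 340 to 413, 2164 to 2692 and 1647 to 2428 CPM. Proximal tubule markers moved the other way, with 9 of 9 tested lower in the Ade group and sums of 15742 to 21342, 2617 to 9094 and 4111 to 8509 CPM. Of the 10 markers of the loop of Henle, distal tubule and collecting duct, 9 were lower in the Ade group, with sums of 8579 to 12785, 4161 to 8486 and 6642 to 10838 CPM. Endothelial markers were lower for 4 of 6, and podocyte markers higher for 1 of 5 and lower for 0. These counts stand beside 35.1% of all genes called higher and 32.2% called lower in the Ade group. Limma called 0 genes of these lists, and 0 of all 14696 genes, when IMC was given with adenine. The part of these cell types in the rise of the 10 genes was not tested.

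From mouse to mouse within groups, all 10 members had a positive r with the macrophage sum (n = 17). It ran from 0.43 for Il18 to 0.74 for Gsdmd, with 0.67 for Casp1 and 0.65 for Casp4, and from 0.20 (Pycard) to 0.72 (Casp1) without mice 412 and 407, which were farthest out. The neutrophil sum had an r of 0.88 with Il1b (rho = 0.84, and 0.83 without the 2 mice farthest out, 212 and 410), of 0.67 with Il1rn and of 0.66 with Nlrp3, while Gsdmd had 0.18 and Il18 0.04. Casp1 had the same r of 0.80 with the B and plasma cell sum (rho = 0.74) and with the T and NK cell sum (rho = 0.68), and these were 0.51 and 0.42 without mice 308 and 311. With the proximal tubule sum, all 10 values were below 0. Those of Casp4 (r = -0.69, rho = -0.74), Pycard (r = -0.65, rho = -0.62) and Ripk3 (r = -0.63, rho = -0.54) were -0.70, -0.43 and -0.60 without mice 207 and 407.

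**Figure D4:**
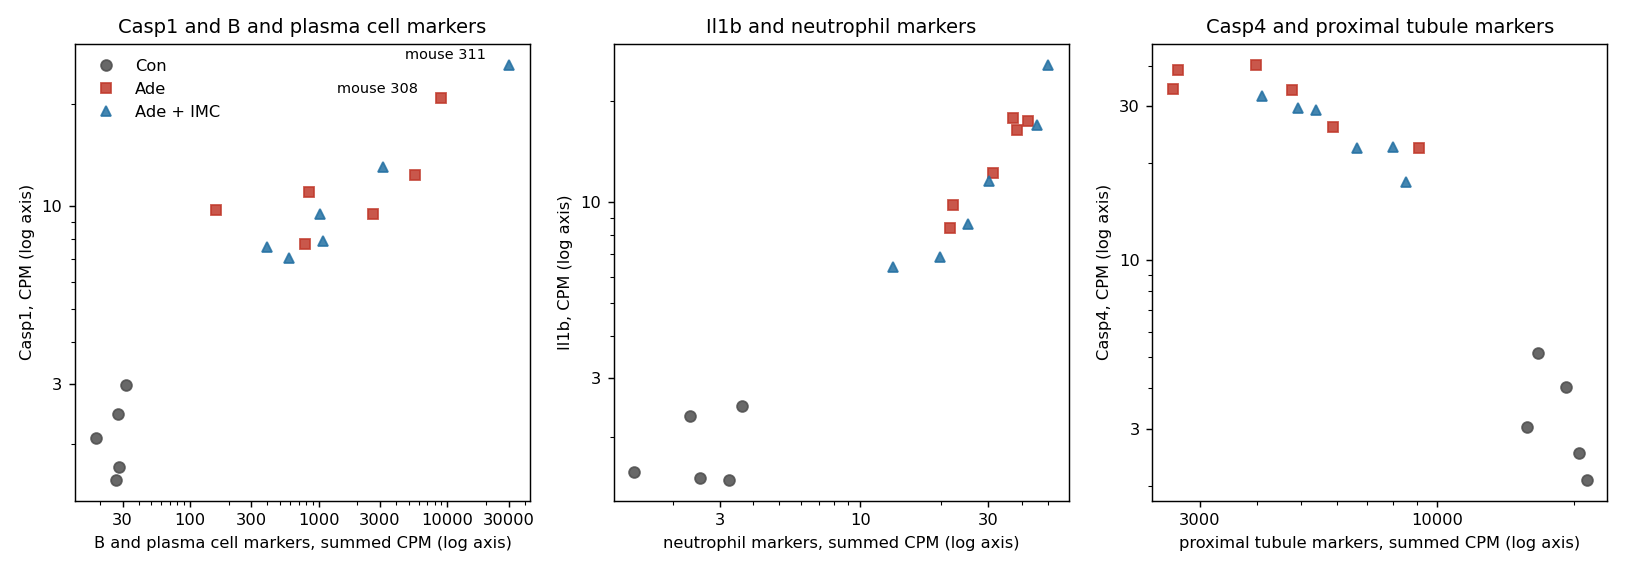
CPM of Casp1, Il1b and Casp4 against the summed CPM of B and plasma cell, neutrophil and proximal tubule markers (all axes log), 1 point per mouse, with the Con, Ade and Ade + IMC groups as circles, squares and triangles. Mice 308 and 311, labelled in the first panel, carry the highest Casp1 values and the highest B and plasma cell sums.

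The genes whose within-group pattern was most like each member's were found by Pearson r over the 17 mice among 15128 genes with a mean of at least 1 CPM. Casp1 was closest to Il2rg (r = 0.962), the common gamma chain of lymphocyte cytokine receptors, and Cd37 (0.948), a leukocyte tetraspanin, with values of 0.934 and 0.918 without mouse 311 and of 0.894 and 0.861 without mice 308 and 311, settings chosen after the data were seen. Il1b was closest to Il1f9 (0.866), another IL-1 family cytokine, also called Il36g, and Stra6 (0.855). Il1f9 had 0 reads in all 5 Con mice and 2 to 45 in the adenine-fed mice, so its mean reached 1 CPM only through the adenine groups and the Con mice carry no variation of its reads. Il1rn was closest to Hcar2 (0.904), a niacin and ketone body receptor of myeloid cells with 0 to 2 reads in the Con mice, and Mfsd12 (0.875), and Nlrp3 to Mcemp1 (0.891), a mast cell and myeloid membrane protein with 1 to 6 reads in the Con mice, and Immp2l (0.878). Ripk3 was closest to Evl (0.903) and Gm4841 (0.897, with 3 to 8 reads in the Con mice), Mlkl to S1pr2 (0.915) and Ctsc (0.867), and Gsdmd to Brca1 (0.918) and AB124611 (0.909). Pycard was closest to Pa2g4 (0.913) and Ampd2 (0.872), Casp4 to Odf2 (0.894) and Slc16a3 (0.883). Il18 had the loosest match, with Alpk1 (0.744) and Prr36 (0.724). These are the highest of many values, and no test was made of them.

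Most, but not all, of the other inflammasome genes were higher with adenine. Of 23 other sensors and regulators, 19 were tested, of which 14 were higher, 4 lower and 1 not called in the Ade group (median log2 fold change 1.90, also with Nlrp10 at its bound). These and the following counts stand beside 35.1% of all genes called higher and 32.2% called lower, with a median of 0.02. Nlrp10 had 0 reads in all Con mice and 21 to 43 in the Ade mice, at least 7.79-fold higher against a floor of 3 reads in the smallest Con library, and Mefv, encoding the sensor pyrin, rose by 3.14 (SE 0.48) on the log2 scale from 1 to 5 reads in the Con mice. Nlrp6, a sensor of epithelial cells, fell by 1.42 (SE 0.27), and Nek7, a partner of NLRP3, fell by 0.40 (SE 0.12). Of 10 other caspases and gasdermins, 4 were higher and 2 lower (median 0.39), and the higher share is near that of all genes, so nothing was read from it. Casp12 rose by 2.71 (SE 0.12), while Casp9 fell by 0.30 (SE 0.08) and Gsdme by 0.24 (SE 0.08).

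Other IL-1 family ligands, receptors and adaptors were mostly higher. Of 17 tested, 12 were higher and 1 lower in the Ade group (median 1.91), against 35.1% and 32.2% of all genes. Il36a, an epithelial IL-1 family cytokine, had 0 to 2 reads in the Con mice and a fitted log2 fold change of 6.44 (SE 0.76). Il1r2, the decoy receptor for IL-1, also had 0 to 2 reads in the Con mice and a fitted value of 4.63 (SE 0.50). Sigirr, an inhibitory receptor of the family, was the gene that fell, by 0.80 (SE 0.13).

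In the necroptosis and death receptor list, 13 of 21 genes were higher and 7 lower in the Ade group (median 0.46), where the lower share is near the 32.2% of all genes. Tnf, the ligand that can start necroptosis, rose by 3.43 (SE 0.30) from 3 to 6 reads in the Con mice, and Zbp1, a nucleic acid sensor that binds RIPK3, by 2.53 (SE 0.19) on the log2 scale. Pgam5, a mitochondrial phosphatase, fell by 0.32 (SE 0.15) and Cflar, an inhibitor of caspase-8, by 0.31 (SE 0.10). Ripk1, the kinase upstream of RIPK3, fell by 0.23 (SE 0.11, adjusted p = 0.0825 by edgeR), unlike Ripk3 and Mlkl, and was singled out after its value was seen.

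Among the BCL2 family and apoptosome genes, 10 of 15 were higher and 2 lower (median 0.62), led by Bcl2a1b (fitted value 4.03, SE 0.40, from 0 to 3 reads in the Con mice, a gene with near-identical copies whose reads may be split) and Bbc3, encoding PUMA (2.07, SE 0.26). Bid fell by 0.63 (SE 0.08) and Bcl2l1 by 0.29 (SE 0.10). Ferroptosis genes differed in direction, with 2 of 12 higher and 7 lower (median -0.27). Slc7a11, the cystine importer, rose by 3.94 (SE 0.37) from 1 to 6 reads in the Con mice, and Hmox1 by 1.13 (SE 0.16), while Ncoa4, the receptor for ferritin autophagy, fell by 0.78 (SE 0.16) and the transferrin receptor Tfrc by 0.68 (SE 0.15). With IMC added to adenine, limma called 0 of the tested genes of these 6 lists, and 0 of all 14696 genes.

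**Figure D5:**
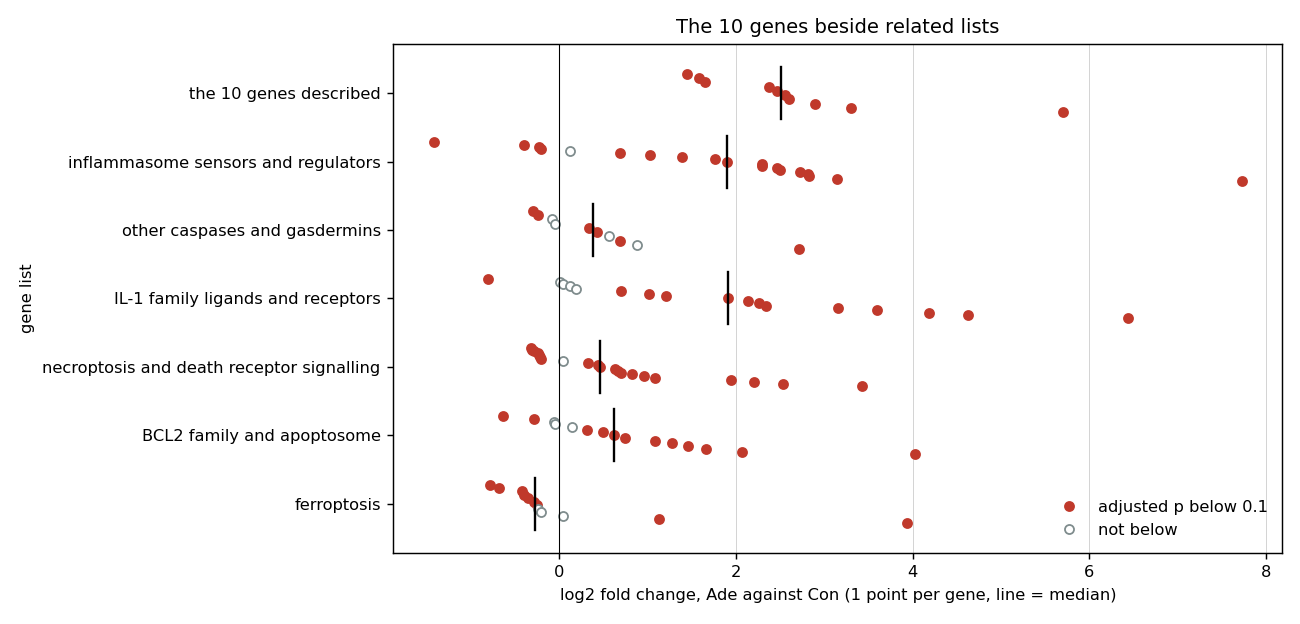
Log2 fold change between the Ade and Con groups (horizontal axis) of the 10 genes and of the 6 related lists, 1 point per gene, filled where the adjusted p by edgeR was below 0.1, with the list median as a line. The 10 genes have the highest median, 2.52, and the ferroptosis list the lowest, -0.27.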

How the data were processed

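Kidney RNA-seq libraries (Illumina TruSeq) of 17 of the 21 mice in the labels were analysed, grouped by their treatment label. The authors deposited raw counts per gene (Con and Ade mice, 21004 genes) and a normalized signal (Ade and Ade + IMC mice, 21287 genes), that is, counts scaled by DESeq2 size factors. The authors' own comparison table (fold changes and p-values) was used only to find symbols. The paper names STAR and mm10, whereas the submitters' processing notes list Trimmomatic 0.39, FastQC 0.11.8, Bowtie2 2.2.5, HTSeq 0.9.1 and DESeq2. Which aligner made the files, which annotation release was used and whether strand was read are not given in the sources used here. All normalized values above 0 (100%) were whole multiples of 1 read (tolerance 0.001), and the recovered reads of the Ade mice differed from the raw counts in 0 values. No 2 mice of a group agreed within sampling noise (lowest chi-square per degree of freedom 4.21).

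The Ade and Con groups were compared on raw counts, and the Ade + IMC and Con groups on raw counts joined with recovered reads, by edgeR 4.0.16 (quasi-likelihood, TMM, filterByExpr). Since the Ade + IMC values were deposited normalized, their comparison with the Ade group used limma 3.58.1 (trend) on the log2 of the normalized count plus 1, for means of at least 10. Fold changes on that scale understate the change of low genes. DESeq2 1.42.0 and edgeR on recovered reads were alternatives, all in R 4.3.3. A gene was called where its Benjamini-Hochberg adjusted p, over all genes tested, was below 0.1. Intervals are 95% and use each fit's own degrees of freedom. The alternatives changed the tool, scaling, low-count filter, pseudocount, threshold, block and mice. The fits were tested on simulated data. Related genes were named by rule: in each list, the 2 called genes with the largest rise and the 2 with the largest fall between the Ade and Con groups, and per member the 2 genes with the highest r. The result of 1 gene that this rule selects is not reported here. Lengths and coordinates are from GENCODE M21 (GRCm38), promoters from RefSeq. List genes were matched by symbol or RefSeq synonym. The members, lists and rules were chosen with earlier results of these data known. P-values measure the spread between mice.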

Additional observations from a re-analysis of the deposited data

Results flagged for a closer look

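Of 33 groups of values tested for a mouse far from the others of its group (the 10 genes and the Il1rn to Il1b ratio in 3 groups), 4 had one by Dixon's 95% critical value, where chance gives about 1 in 20, or 1.6. Casp1 was 20.7 CPM in Ade mouse 308, against 7.75 to 12.3 in the other Ade mice. Casp1 was 26 CPM in Ade + IMC mouse 311, against 7.05 to 13 in the others. Gsdmd was 52.6 CPM in mouse 311, against 23.6 to 32.7. Il18 was 5.48 CPM in Ade + IMC mouse 211, against 2.87 to 3.59. Mice 308 and 311 also had the highest summed markers of their groups for B and plasma cells (9001 and 30395 CPM), T and NK cells (241 and 347 CPM) and macrophages (3130 and 2913 CPM), and the part of these cells in the Casp1 and Gsdmd values was not tested.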

How the results depend on the processing

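The 10 genes kept their direction and an adjusted p below 0.1 in the Ade against Con comparison under all 17 alternatives (highest adjusted p 0.00885) and in the Ade + IMC against Con comparison under all 17 (highest 0.00209). Leaving out 1 mouse gave 9145 to 9848 genes called in the first, 8486 to 9185 in the second, and 0 in the comparison of the adenine groups. There limma called 0 genes and edgeR on recovered reads 0, but DESeq2 on recovered reads called 38, limma with the first digit as a replicate block 133, edgeR with the block 104 and DESeq2 with the block 597, the last 2 settings being chosen after the data were seen. Same-digit pairs of Ade and Ade + IMC mice had a median r of deviations from the group means of 0.24 (-0.25 to 0.51, 12 pairs) and other pairs of -0.07. These values do not settle whether the digit marks a real block. Its meaning is not stated, so the fits with the block were kept as alternatives. Of the members, DESeq2 with the block alone called any: Casp4 -0.44, Il1rn -0.79 and Pycard -0.37. Il18 turned from 0.03 to -0.10 with edgeR, -0.09 with DESeq2, and with the block to -0.06 (limma), -0.15 (edgeR) and -0.14 (DESeq2), and Casp1 turned from -0.10 to 0.00 with DESeq2. Leaving out 1 mouse moved Il18 between -0.12 and 0.22 and Casp1 between -0.36 and 0.08. The mean log2 ratio of Il1rn to Il1b moved by less than 1 SD, to between -2.41 and -1.89 (Con), 0.56 and 0.84 (Ade), and 0.22 and 0.42 (Ade + IMC), without 1 mouse. Con values of Il1rn rest on 1 to 8 reads per library and those of Nlrp3 on 4 to 11. The causes of these differences were not tested.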
